A study of Homo sapiens with 3 samples.

Results

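The receptors for IGF1, insulin and IGF2 and the adaptor proteins that bind the activated receptors were followed in the U87 glioblastoma clones U87WT 5 and U87Mut 5. The group holds 8 genes, the receptors IGF1R, INSR and IGF2R and the adaptors IRS1, IRS2, SHC1, GRB10 and GRB2, found by gene symbol and RefSeq transcript among the probes that are not controls. They were measured by 12 of 58201 probes and are 8 of 25006 named genes. By the brightest probe of each gene, IRS1 was the gene of the group that changed by more than 0.5 on the log2 scale between conditions in both clones. Its transcript was lower after IGF1 than in FBS-free medium in both clones, and higher again when OSI906 was present. The second IRS1 probe changed in the same directions, by less than 0.5. SHC1, by its bright probe, was higher in U87WT than in U87Mut on each array. The transcript read by the single IGF1R probe was at a similar level in both clones in the main processing. Whether that probe reads the transfected sequence was not tested.

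Both clones were derived from U87, an established human glioblastoma line, by stable transfection and G418 selection, and each is 1 clone. U87WT carries the receptor as the fusion GFP-IGF1R. U87Mut carries GFP-IGF1R1025x-1100x-1120x, in which the lysines at the 3 positions in its name are replaced, and its label gives the receptor as not nuclear. U87WT RNA (Cy5) and U87Mut RNA (Cy3) were hybridized together on 3 Agilent arrays, 1 each for FBS-free medium for 24 h, 50 nM IGF1 for 24 h, and 50 nM IGF1 for 24 h with OSI906, an inhibitor of the IGF1R and insulin receptor kinases. The labels give OSI906 as 0.5 μM in one place and 500 μM in another, and its preincubation as 24 h. For these arrays the study itself states the lower concentration and a shorter preincubation. The higher label and the labelled preincubation differ from that statement, and the exposure could not be checked here. No array was repeated and the dyes were not exchanged, so treatment and array cannot be told apart, nor can the dye bias of a gene and a difference between clones. The arrays used here hold no parental or empty vector cells, so the overexpression of the receptor was not checked.

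IGF1R and INSR are related tyrosine kinase receptors that bind IGF1, IGF2 and insulin at the cell surface and also form hybrid receptors. IGF2R, the cation-independent mannose-6-phosphate receptor, has no kinase and carries IGF2 to lysosomes. The active kinases phosphorylate the docking proteins IRS1 and IRS2, which recruit PI3K and lead to AKT, and SHC1, which recruits GRB2 and through it SOS, RAS and ERK. GRB10 binds the active receptors and dampens their signal. Expression of several of these genes is known to be set by FOXO factors, which AKT keeps out of the nucleus.

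The brightness of each spot was recorded on 62976 spots per array, 60901 of them not controls. Of the probes, 50.1% to 52.8% were well above background in both dyes of an array. The IGF1 array had a patch of local background up to 66985 in Cy5, against 373 and 45 on the others, and spots marked as not uniform (384 for FBS-free medium, 572 for IGF1, 5 for IGF1 with OSI906) were kept out of the background fit. The local background at the probes of the 8 genes (median over the spots of a probe) lay between 19 and 24 in both channels on all arrays, the IGF1 array included. Of 10 genes chosen as markers of this glioma line, 7 were detected (well above background in both dyes on each array), while GFAP, S100B and SOX2, which mark astrocytes and neural stem cells, were not on any array. Of 7 markers of other cell types, 3 were well above background everywhere (PTPRC, EPCAM and KRT8), CD3E was on 1 array, and CDH1, ALB and PECAM1 on none. The log2 ratios of U87WT over U87Mut lay between -1.03 and 1.15 over the first list and between -0.25 and 0.53 over the second, and their part in the results below was not tested.

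The start regions of IRS1, IRS2 and IGF1R are shown because IRS1 carries the main change described below, IRS2 is its closest relative in the group with a smaller change, and IGF1R is the transfected gene. Each is the 250 bases before the annotated start in RefSeq (GRCh38.p14), read 5′ to 3′ on the strand of the gene. Capitals mark GC boxes, searched as GGGCGG and, on the other strand, CCGCCC, and the forkhead motif TGTTTA and the insulin response motif TGTTTTG, also searched on both strands. Matches may overlap.
IRS1, chr2:226799821-226800070, minus strand: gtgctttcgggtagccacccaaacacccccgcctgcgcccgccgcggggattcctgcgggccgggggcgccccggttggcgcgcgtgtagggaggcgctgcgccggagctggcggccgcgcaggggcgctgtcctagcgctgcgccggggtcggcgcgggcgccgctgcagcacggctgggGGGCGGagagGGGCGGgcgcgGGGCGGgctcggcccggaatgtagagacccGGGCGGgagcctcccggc
IRS2, chr13:109786584-109786833, minus strand: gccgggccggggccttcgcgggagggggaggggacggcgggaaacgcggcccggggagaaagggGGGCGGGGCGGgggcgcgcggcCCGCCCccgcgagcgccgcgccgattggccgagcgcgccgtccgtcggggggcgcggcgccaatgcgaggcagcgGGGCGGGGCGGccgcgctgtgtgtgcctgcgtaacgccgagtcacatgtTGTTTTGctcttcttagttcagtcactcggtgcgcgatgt
IGF1R, chr15:98648289-98648538, plus strand: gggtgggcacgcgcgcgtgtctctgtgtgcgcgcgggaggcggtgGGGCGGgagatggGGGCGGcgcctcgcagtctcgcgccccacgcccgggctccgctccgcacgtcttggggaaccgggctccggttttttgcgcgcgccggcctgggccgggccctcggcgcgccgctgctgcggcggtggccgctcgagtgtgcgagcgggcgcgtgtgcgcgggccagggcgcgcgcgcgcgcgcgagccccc
GC boxes numbered 4 in IRS1, 5 in IRS2 and 2 in IGF1R, and 42.6% of 35116 human start regions of this length hold at least 1. G and C made up 80.8% of the IRS1 region, 76.4% of the IRS2 region and 81.2% of the IGF1R region, against a median of 58% over all regions. TGTTTTG was found once, in IRS2, and occurs in 4.3% of all regions, while TGTTTA, found in 11% of all regions, was in none of the 3. All start regions of the other 5 genes lacked both of these letter runs as well. INSR had 4 GC boxes, IGF2R 6 and GRB2 3. SHC1 has 2 annotated starts, of which 1 region held 2 GC boxes and the other 0, and GRB10 has 5, of which 2 regions held 3 each and the others 0. These matches describe letters and say nothing of binding.

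Values below are log2 normalized intensities (levels) of 1 probe, or differences of these. Levels of different probes are not set against each other. The SD of a single log2 ratio, estimated by comparing the FBS-free array with the OSI906 array over 27223 bright probes, was 0.14. From the same arrays, the difference of a level between arrays had an SD of 0.23 in U87WT and 0.17 in U87Mut. These values hold noise and response together. The IGF1 array did not enter them, so its own noise is not covered where they are set beside changes on that array. A ratio or change past 0.5 in size is counted as past the limit, with no p value, since there is 1 array per condition. In a culture, a lower level may come from fewer cells that express a gene or from less RNA per cell, which cannot be told apart.

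**Figure D1:**
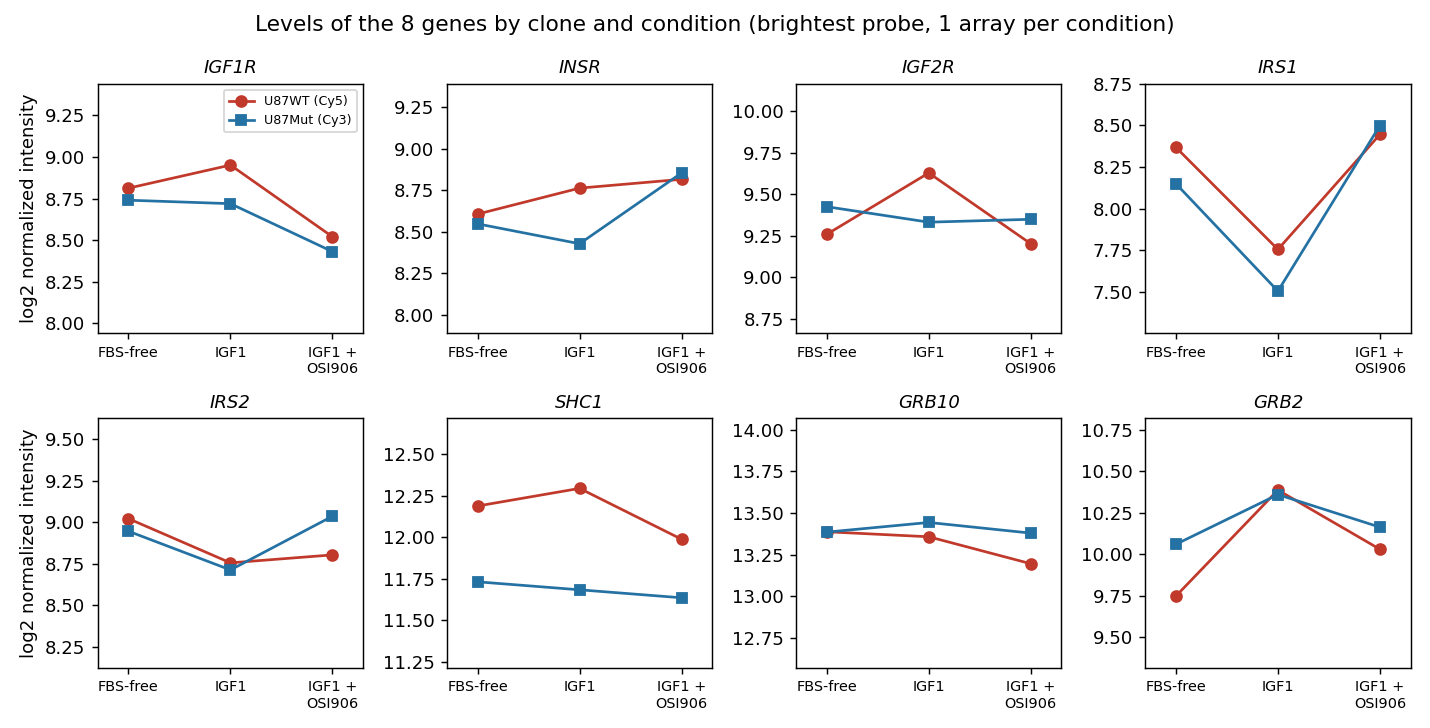
Log2 normalized intensity (y axis) of the 8 genes by their brightest probe in each condition (x axis), with U87WT as red circles and U87Mut as blue squares, 1 array per condition and each panel spanning 1.5 log2 units. IRS1 was lowest after IGF1 in both clones, and the SHC1 level of U87WT lay above that of U87Mut in every condition.

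The first question was how much IGF1R, the gene transfected into both clones, differed between them. IGF1R (RefSeq NM_000875, gene at chr15:98648539-98964530) was read by 1 probe, whose spot brightness was 445, 520 and 324.5 in U87WT and 447, 308.5 and 289.5 in U87Mut, for FBS-free medium, IGF1, and IGF1 with OSI906, an order kept below. The normalized levels were 8.81, 8.95 and 8.52 in U87WT and 8.74, 8.72 and 8.43 in U87Mut. U87WT was slightly above U87Mut on all arrays, with log2 ratios of 0.07, 0.23 and 0.09, of which only that after IGF1 exceeded the SD of a ratio. The mean ratio over the 3 arrays was 0.13 (95% confidence interval 0.01 to 0.25), a fold of 1.10, and it did not pass the limma test (adjusted p = 0.201, Benjamini-Hochberg over 57318 probes). In this processing the interval lies within 0.5 in either direction for the transcript that this probe reads, as far as dye bias allows. It measures the spread between 3 conditions of 1 clone each, not between cultures, so it cannot exclude a difference of 0.5. The position of the probe within the transcript is not given in the files used here, so whether it reads the transfected coding sequence besides the endogenous transcript was not tested. With the background fitted on all spots or with the deposited table, the sign of the ratio after IGF1 was reversed, and over all alternatives that ratio ranged from -0.17 to 0.57. The ratio in FBS-free medium was -0.20 with median in place of loess normalization.

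INSR (NM_000208, gene at chr19:7112265-7294414), the insulin receptor, had levels of 8.61, 8.76 and 8.82 in U87WT and 8.55, 8.43 and 8.85 in U87Mut in the same order of conditions. The clones were within 0.06 of each other in FBS-free medium and within 0.04 with OSI906, and U87WT was higher by 0.33 after IGF1. IGF2R (NM_000876, gene at chr6:159969082-160111504) had levels of 9.26, 9.63 and 9.20 in U87WT and 9.43, 9.33 and 9.35 in U87Mut. U87WT was below U87Mut on the arrays without IGF1 and with OSI906, with ratios of -0.17 and -0.15, and above it after IGF1, with 0.30. Neither receptor passed the limma test over the 3 arrays, with mean ratios of 0.12 (interval -0.09 to 0.33, adjusted p = 0.494) for INSR and -0.01 (interval -0.27 to 0.26, adjusted p = 0.985) for IGF2R. The positive sign of both ratios after IGF1 was not kept with the background fitted on all spots or with the deposited table.

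IRS1 and IRS2 are the docking proteins that couple the receptors to PI3K. IRS1 (NM_005544, gene at chr2:226731312-226799820) was read by 2 probes. The brighter one had a spot brightness of 317.5, 202 and 308.5 in U87WT and of 282, 120.5 and 306 in U87Mut. Its levels were 8.37, 7.75 and 8.45 in U87WT and 8.15, 7.50 and 8.50 in U87Mut, so that the IGF1 array held the lowest value of each clone and the other conditions differed by 0.08 in U87WT and 0.35 in U87Mut. The other IRS1 probe had levels of 7.66, 7.35 and 7.77 in U87WT and 7.46, 7.13 and 7.63 in U87Mut, with the same order of conditions. IRS2 (NM_003749, gene at chr13:109752695-109786583) had levels of 9.02, 8.76 and 8.80 in U87WT and 8.95, 8.71 and 9.04 in U87Mut. The clones differed little: the log2 ratios were 0.22, 0.25 and -0.05 for the brighter IRS1 probe, 0.19, 0.22 and 0.13 for the dimmer one, and 0.08, 0.04 and -0.23 for IRS2. In the limma test the adjusted p was 0.366 and 0.0529 for the IRS1 probes (mean ratios 0.14 and 0.18) and 0.827 for IRS2 (mean ratio -0.04), and none passed 0.05.

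SHC1 (gene at chr1:154962298-154974376), which links the receptors to GRB2, was read by 2 probes that gave different results. The probe assigned to NM_003029 is spotted 10 times on each array, and 8, 8 and 9 spots could be used. Its levels were 12.19, 12.29 and 11.99 in U87WT and 11.73, 11.68 and 11.64 in U87Mut, with U87WT above U87Mut on each array. The ratio of U87WT over U87Mut was 0.46 ± 0.02 in FBS-free medium (SD over spots, n = 8), 0.61 ± 0.03 after IGF1 (n = 8) and 0.35 ± 0.02 after IGF1 with OSI906 (n = 9). These SDs measure the printing and scanning of 1 RNA pair, not the spread between cultures. The mean over the 3 arrays was 0.47 (SE 0.06, interval 0.32 to 0.63), a fold of 1.39, with an adjusted p of 0.0155 in limma. Across the main setting and its alternatives, the adjusted p ranged from 0.0048 to 0.492, and the mean kept its sign, between 0.22 and 0.64. Without the array of FBS-free medium the adjusted p was 0.0808, without that of IGF1 0.0147 and without that of IGF1 with OSI906 0.0549. The dimmer probe, assigned to NM_183001 and spotted once, had ratios of -0.11, 0.06 and -0.04, all within the SD of a single ratio, and did not pass the test (adjusted p = 0.782).

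**Figure D2:**
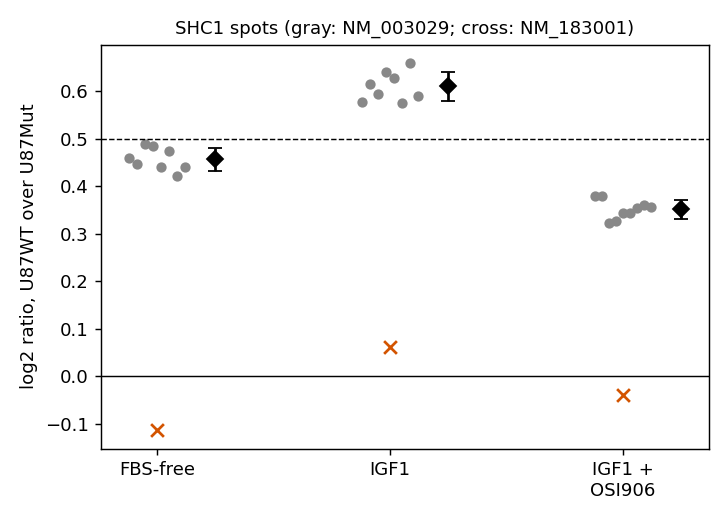
Log2 ratio of U87WT over U87Mut (y axis) by condition (x axis) for the spots of the bright SHC1 probe (gray points, with the mean and SD in black) and for the single spot of the other SHC1 probe (orange cross), with the limit of 0.5 dashed. The spots of the bright probe lay between 0.32 and 0.66 on all arrays, apart from the other probe.

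GRB10 (gene at chr7:50590068-50793453), the adaptor that dampens receptor signaling, was read by 3 probes, of which 2 carry the same transcript name, NM_001001555. The brightest had levels of 13.39, 13.36 and 13.20 in U87WT and 13.39, 13.44 and 13.38 in U87Mut, which is a ratio of 0.00, -0.09 and -0.18. The second probe had ratios of -0.18, -0.49 and -0.39, lower in U87WT on all 3 arrays. Its mean of -0.35 (interval -0.53 to -0.18) had an adjusted p of 0.0450 in limma, while the brightest probe had a mean of -0.09 (adjusted p = 0.388). The third probe, assigned to the predicted transcript XM_017012031, was dim, with a brightness of 26.5 to 43 and not well above background in U87Mut after IGF1, and its ratios of -0.03, 0.18 and 0.11 carry little information. The probes of GRB10 thus differed in whether the clones were unequal.

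GRB2 (NM_002086, gene at chr17:75318076-75405678), which brings SOS to the receptors, had levels of 9.75, 10.39 and 10.03 in U87WT and 10.06, 10.36 and 10.16 in U87Mut. U87WT was lower by 0.31 on the log2 scale in FBS-free medium and close to U87Mut after IGF1, with a ratio of 0.03. The latter was -0.32 when the background was fitted on all spots, and it ranged from -0.37 to 0.47 over the alternatives. The mean ratio was -0.14 (interval -0.33 to 0.05) and did not pass the limma test (adjusted p = 0.367).

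**Figure D3:**
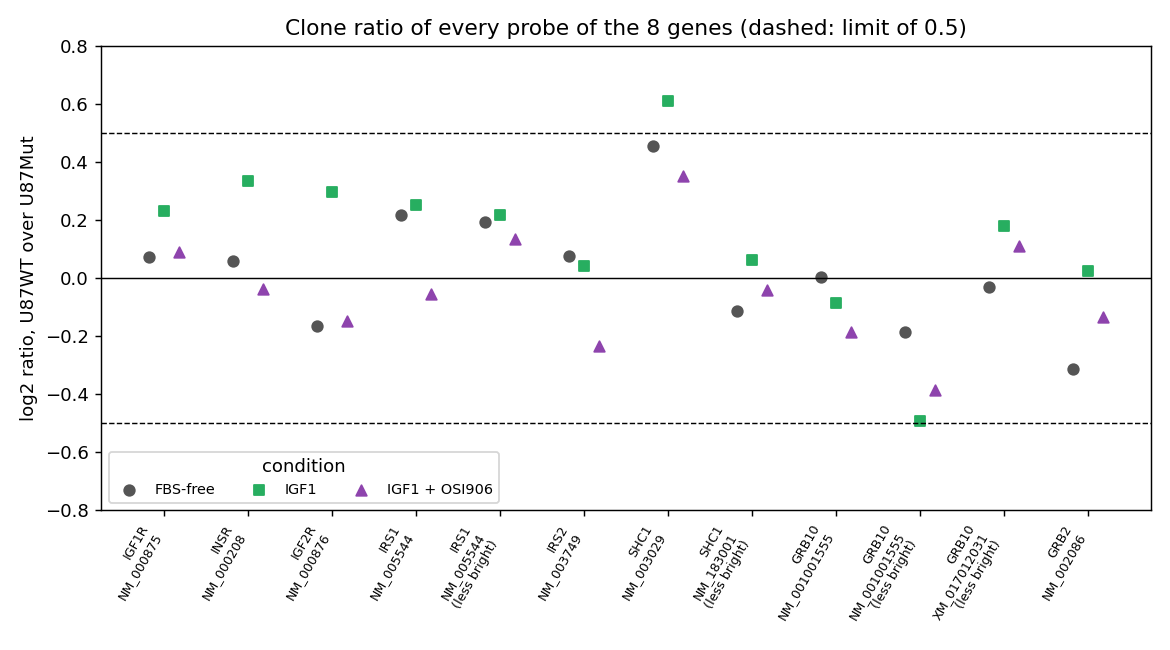
Log2 ratio of U87WT over U87Mut (y axis) for all 12 probes (x axis, with their RefSeq transcript) on the arrays of FBS-free medium (circles), IGF1 (squares) and IGF1 with OSI906 (triangles), with dashed lines at 0.5 in size. The single value past the limit was the bright SHC1 probe after IGF1, at 0.61.

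By their brightest probes, 0 of the 8 genes passed 0.5 in size in FBS-free medium, 1 (SHC1) after IGF1 and 0 after IGF1 with OSI906. Of all named genes well above background the share past 0.5 was 12.5% for FBS-free medium, 11.9% for IGF1 and 11.4% when OSI906 was added. For 8 genes these shares come close to the counts above. In the limma test 1 of the 8 genes (SHC1) was called, against 22.8% of the 15103 named genes tested, 1738 of them higher and 1701 lower in U87WT. The median ratio of the 8 genes was 0.07, 0.24 and -0.09 on the 3 arrays, and that of all named genes -0.01, 0.02 and -0.01. The median of the 8 genes after IGF1 was -0.08, of the opposite sign, when all spots entered the background fit.

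The next question was how each clone responded to IGF1. IRS1 was lower after IGF1 than in FBS-free medium by 0.61 on the log2 scale in U87WT and by 0.65 in U87Mut, to 65.3% and 63.9% of its level. The second IRS1 probe was lower by 0.31 and 0.33, in the same direction in both clones. Of 15105 named genes well above background, 195 (1.29%) had a lower change than IRS1 in U87WT and 85 (0.563%) in U87Mut. Each of the 10 alternatives kept the direction, with changes from -0.92 to -0.37 in U87WT and from -0.89 to -0.49 in U87Mut, so that the limit of 0.5 was not reached in some of them. IRS2 was lower by 0.27 in U87WT and by 0.23 in U87Mut, above the SD of such a difference in both clones, and in U87WT its sign was reversed under 1 alternative.

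GRB2 differed in the other direction. It was higher after IGF1 by 0.64 in U87WT and by 0.30 in U87Mut, and 129 named genes (0.854%) had a higher change in U87WT. The alternatives placed this change between 0.36 and 1.00 in U87WT and between -0.06 and 0.44 in U87Mut, where median in place of loess normalization turned its sign. With the background fitted on all spots the GRB2 change was 0.44 in U87WT and 0.44 in U87Mut, so the clones were then alike. IGF2R was higher by 0.37 in U87WT and changed by -0.09 in U87Mut, and with the background fitted on all spots these changes were 0.11 and 0.06. For the other genes the changes were 0.14 in U87WT and -0.02 in U87Mut for IGF1R, 0.16 and -0.12 for INSR, 0.11 and -0.05 for SHC1, and -0.03 and 0.06 for GRB10, all within the SD of a difference. Whether the clones differed in their response could not be tested with 1 array per condition.

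Past 0.5 in size after IGF1 were 2 of the 8 genes in U87WT (IRS1 lower, GRB2 higher) and 1 in U87Mut (IRS1 lower). The share of all named genes well above background was 4.52% in U87WT and 2.49% in U87Mut. The median change of the 8 genes was 0.12 in U87WT and -0.07 in U87Mut, against 0.02 and -0.03 for all named genes. These medians of the 8 genes were -0.02 and -0.01 when all spots entered the background fit.

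**Figure D4:**
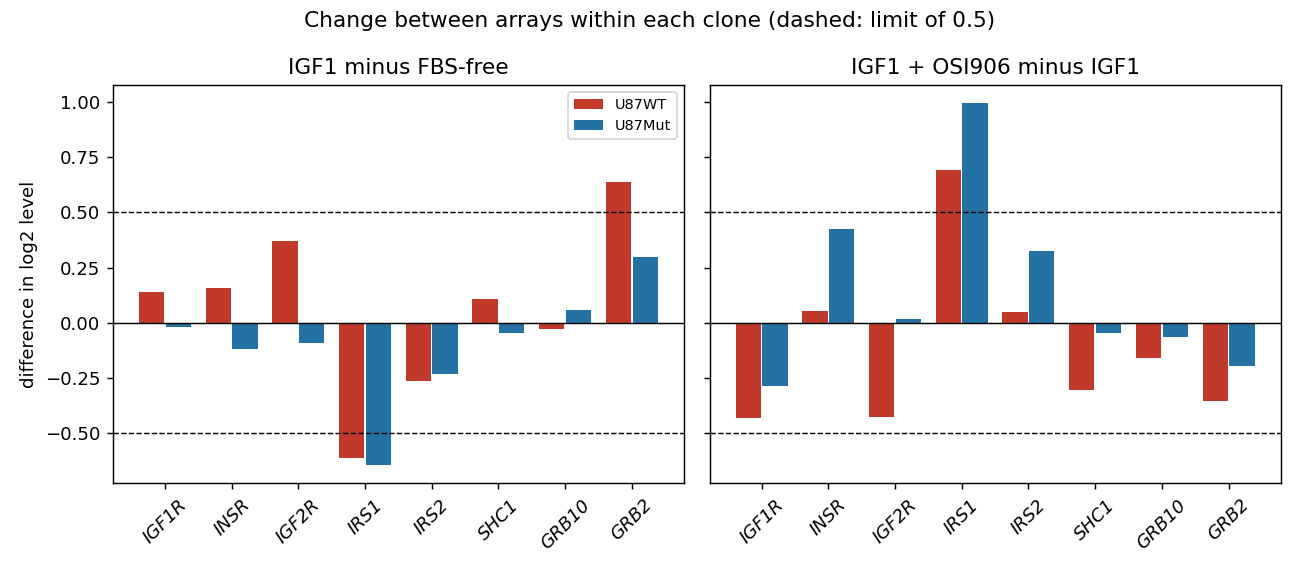
Difference in log2 level between arrays (y axis) for the 8 genes by their brightest probe, IGF1 minus FBS-free medium on the left and IGF1 with OSI906 minus IGF1 on the right, with U87WT in red and U87Mut in blue and dashed lines at 0.5 in size. IRS1 is past the limit in both clones on each side, lower after IGF1 and higher with OSI906.

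The array with OSI906 asks whether the changes after IGF1 were seen when the receptor kinase was inhibited. IRS1 was higher with OSI906 than with IGF1 alone by 0.69 in U87WT and by 1.00 in U87Mut, a fold of 1.61 and 1.99. Only 30 of 15194 named genes (0.197%) had a higher change in U87Mut, and 256 (1.68%) in U87WT. Relative to FBS-free medium, IRS1 with IGF1 and OSI906 differed by 0.08 in U87WT and by 0.35 in U87Mut, and by 0.11 and 0.17 by the second probe, which itself was higher by 0.42 and 0.50 than with IGF1 alone. The alternatives kept the direction, with changes from 0.55 to 0.91 in U87WT and from 0.75 to 1.24 in U87Mut. The change with IGF1 and the change with OSI906 share the IGF1 array, so a single low value on that array would give both.

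IRS2 was higher with OSI906 than with IGF1 alone by 0.32 in U87Mut and by 0.05 in U87WT, and INSR by 0.43 in U87Mut and by 0.05 in U87WT. With the background fitted on all spots the INSR values were 0.30 and 0.29, close to each other. The IRS2 values were then 0.19 in U87Mut and 0.16 in U87WT, also close. In U87WT the sign of INSR turned under 1 alternative. GRB2 was lower with OSI906 by 0.36 in U87WT and by 0.20 in U87Mut, between its levels of the other conditions in both clones. With the background fitted on all spots it changed by -0.16 in U87WT and -0.35 in U87Mut. IGF1R was lower with OSI906 by 0.43 in U87WT and by 0.29 in U87Mut, and each clone held its lowest IGF1R level on that array, below FBS-free medium by 0.29 and 0.31. The direction for IGF1R was the same in all 10 alternatives in both clones. IGF2R was lower by 0.43 in U87WT and changed by 0.02 in U87Mut, and with the background fitted on all spots it changed by -0.16 and -0.14. SHC1 changed by -0.31 in U87WT and -0.05 in U87Mut, and GRB10 by -0.16 and -0.06. Past 0.5 was 1 of 8 genes in each clone, IRS1, while the share of all named genes was 7.28% in U87WT and 3.03% in U87Mut.

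The genes whose profile was most like that of IGF1R were searched by the Euclidean distance between the 6 levels, each gene centered on its own mean, among 15102 named genes. They were IER5 (distance 0.083), DOCK10 (0.088), ACTR3 (0.091), INO80C (0.102) and KIF1B (0.107), where the median distance over all genes was 0.530. For IRS2 they were SRR (0.053), UBE2E2 (0.063), ZMPSTE24 (0.075), PTPRA (0.078) and RMDN2 (0.082), with a median of 0.463 over all genes. The distances rest on 6 levels from 3 arrays, whose pairs share an array. The smallest of so many distances must lie below the median, so the gap shows no special likeness.

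Of 72 other genes of the pathway, 71 had a probe and 68 were marked as well above background throughout, of which 67 had a value on all 3 arrays (the SPRY4 spot of the IGF1 array was marked as not uniform and left out). INSRR, IRS4 and SHC2, relatives of the members, were not. The limma test called 10 of the 67 higher and 7 lower in U87WT, which is 25.4%, close to the 22.8% of all named genes. The count ranged from 0 to 23 over the alternatives, so single calls depend on the processing, and the adjusted p values given here come from limma with Benjamini-Hochberg adjustment.

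In the PI3K branch, which IRS1 and IRS2 feed, 7 of 24 genes were called higher in U87WT and 1 lower, which is 33.3% against 22.8% of all named genes. PIK3R1, the regulatory subunit of PI3K, had ratios of 1.00, 0.58 and 0.38 (mean 0.65, adjusted p = 0.0438), and PIK3R2, another regulatory subunit, had a mean of 0.41 (adjusted p = 0.0107). RICTOR, a subunit of mTORC2, had a mean of 0.39 (adjusted p = 0.0383), and RPTOR, the subunit that defines mTORC1, was the gene called lower, at -0.28 (adjusted p = 0.0396). With the background fitted on all spots, the adjusted p in limma was 0.396 for PIK3R1, 0.0602 for PIK3R2, 0.239 for RICTOR and 0.0693 for RPTOR. The PIK3R1 ratio after IGF1 was then 0.10. PIK3R1 and RPTOR were each called in 6 of 15 settings, RICTOR in 8 and PIK3R2 in 9. RPS6KB2, also called higher, had a mean of 0.30 (adjusted p = 0.0158 in limma). Its adjusted p in limma was 0.0496 with the background fitted on all spots, and it was called in 9 of 15 settings. In the RAS-ERK branch, which SHC1 and GRB2 feed, 0 of 18 genes tested were called higher and 3 (16.7%) lower: the kinase MAP2K1 with a mean of -0.60, the RAS GTPase activator RASA1 with -0.35 and the kinase ARAF with -0.24. Their adjusted p values were 0.0314, 0.0439 and 0.0426 in limma, and 0.0304, 0.0405 and 0.087 with the background fitted on all spots. The difference between the branches was not tested.

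Among 14 phosphatases, SOCS proteins, ubiquitin ligases and other inhibitors, 2 were called higher, the insulin receptor phosphatase PTPN1 (mean 0.48) and SOCS1 (mean 0.36), and 3 lower. These calls are 35.7% of the 14, against 22.8% of all named genes, a difference that was not tested. TRIB3, a pseudokinase that binds AKT, was lower in U87WT on every array, with ratios of -1.86, -1.70 and -1.38 (adjusted p = 0.0036), and the mean stayed between -1.78 and -1.34 in all alternatives. Its limma call was lost with processed intensities (adjusted p = 0.120) and with median in place of loess normalization (adjusted p = 0.251). PTPRF, a receptor phosphatase, had a mean of -0.51 and RACK1, a scaffold protein, of -0.33. The adjusted p values of PTPN1, SOCS1, PTPRF and RACK1 in limma lay between 0.0108 and 0.0374. With the background fitted on all spots they lay between 0.107 and 0.453, so none was called, and the RACK1 ratio after IGF1 was 0.04 in place of -0.22. Among 11 relatives and other docking proteins 1 (9.1%) was called, SHC3, a SHC1 relative of neural cells. It was higher in U87WT, with ratios of 0.70, 0.74 and 0.79 (adjusted p = 0.0031 in limma), past 0.5 on each array. With the background fitted on all spots its ratio after IGF1 was 0.18, its mean 0.55 and its adjusted p in limma 0.229. In a separate alternative, the mean over its 3 probes was 0.37 and was still called (adjusted p = 0.0073 in limma). The SHC3 call held in 10 of 15 settings.

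**Figure D5:**
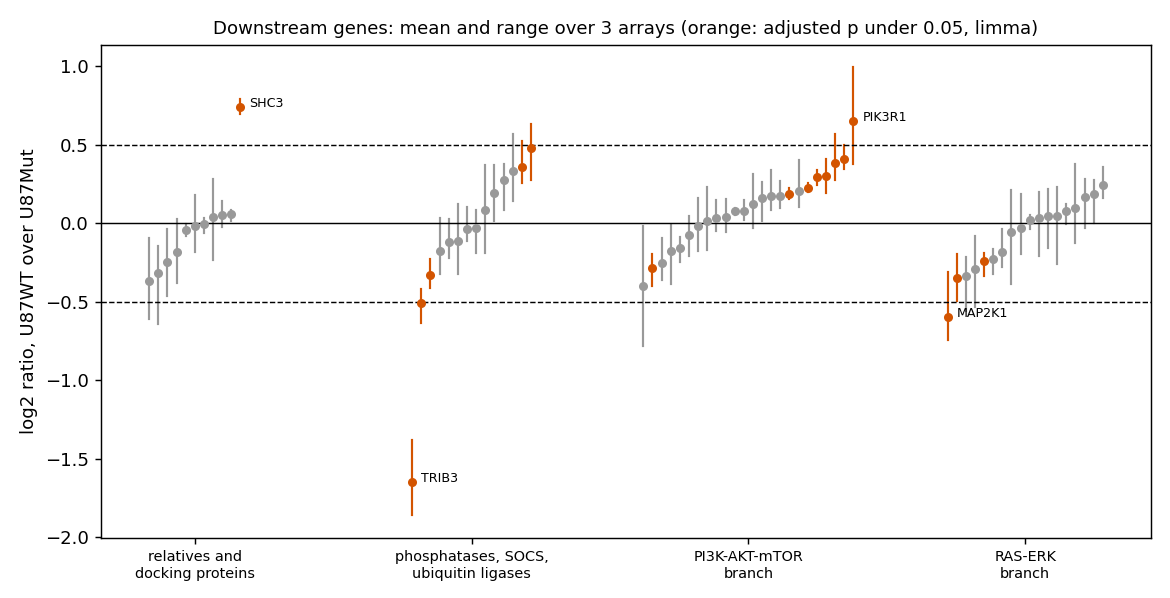
Log2 ratio of U87WT over U87Mut (y axis) of the pathway genes well above background, in 4 lists (x axis, genes in order of their mean), with the mean as a point, the range over the 3 arrays as a line and genes called by limma in orange. TRIB3 lies lowest, at a mean of -1.65, and SHC3 highest, at 0.74.

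Past 0.5 in size after IGF1 were 5 of these 67 genes in U87WT, 4 higher and 1 lower, and 0 in U87Mut, beside 4.52% and 2.49% of all named genes. The count ranged from 0 to 23 in U87WT and from 0 to 10 in U87Mut over the alternatives. By the mean of both clones, PIK3R1 (-0.69 in U87WT and -0.27 in U87Mut) and SHC3 (-0.42 and -0.47) had the lowest changes. Both were below 0 in both clones under each alternative, as IRS1 was. With OSI906, PIK3R1 was higher than with IGF1 alone by 0.15 in U87WT and 0.35 in U87Mut, and SHC3 by 0.57 and 0.52. The highest changes after IGF1 were those of TRIB3 (0.65 and 0.49), EIF4EBP1 (0.75 and -0.01), which restrains translation, and SOCS3 (0.54 and 0.11), an inhibitor of cytokine and insulin signaling. Of these, SOCS3 turned its sign in U87Mut under 3 alternatives. With the background fitted on all spots its changes after IGF1 were 0.16 in U87WT and 0.22 in U87Mut. Relative to IGF1 alone, TRIB3 changed with OSI906 by -0.01 in U87WT and -0.32 in U87Mut. For EIF4EBP1 these changes were -0.55 and -0.17, and for SOCS3 -0.65 and -0.36.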

How the data were processed

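Per the file headers, the deposited intensity values are those of Agilent Feature Extraction 12.0.3.1, median Cy5 and Cy3 readings for the spots and the area around them, not normalized, with marks for spots that are not uniform, outliers or well above background. The authors also deposited log2 ratios made with limma. All 58341 were within 1e-04 of red over green recomputed with normexp on all spots at an offset of 20, loess, and averaging of replicate spots. The deposited ratios correlated with the ratios used in this report at 0.989 for FBS-free medium and 0.975 for IGF1 with OSI906. For the IGF1 array the correlation was only 0.602, so values that rest on this array depend most on the processing.

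Here R 4.3.3 and limma 3.58.1 were used. Normexp with an offset of 50 was fitted without the spots marked as not uniform, arrays were normalized by loess and between arrays by Aquantile, controls and marked spots (463, 638 and 96 not controls) were left out, and replicate spots were averaged. Loess and Aquantile assume that most genes do not differ. Saturated spots numbered 0. RefSeq transcripts of GRCh38.p14 named 34892 of 36770 probes. A gene is given by its brightest probe unless stated. The level of a clone is the mean log2 intensity of both channels plus (U87WT) or minus (U87Mut) 0.5 times the log2 ratio.

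The clone difference was tested with limma (intercept only, 3 arrays, Benjamini-Hochberg at 0.05 over 57318 probes). The arrays are different conditions from 1 clone each, so p values measure only the spread between them, and treatment responses add to it. Simulated data for this comparison held 57318 probes, of which 200 were raised by 1 on the log2 scale. Of the raised probes 197 were called, along with 7 others, and smaller changes were not simulated. The raised probes were made bright, the background was even and the noise independent. Dye bias of single genes, treatment differences and a background patch were not simulated, so these counts do not describe the test on the real arrays.

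The genes and lists were chosen with earlier results of these data known. Named genes are the 8 genes, the 5 most like IGF1R and IRS2, pathway genes past 0.5 in size on all arrays and the 3 highest and lowest after IGF1; other pathway genes named were singled out for the limma call after their values were seen. Of the genes this rule names, 1 is not reported here. Alternatives were other background fits and offsets, processed intensities, other normalizations, the mean of all probes, a limit of 1, only probes well above background, the deposited table and leaving out each array. The number of arrays limits the precision.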

Additional observations from a re-analysis of the deposited data

How the results depend on the processing

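The changes of IRS1 with IGF1 and with OSI906 kept their direction in both clones under all alternatives run. After IGF1 they were under 0.5 in size with median in place of loess normalization in U87WT (-0.37) and with the mean of all probes in U87WT (-0.46) and U87Mut (-0.49). The SHC1 call was lost with an offset of 0 (adjusted p = 0.159), processed intensities (0.219), median normalization (0.492) and the mean of its probes (0.0613). Of 188 recomputed counts, 124 stayed within 1.5 times the main count. The cause of the other shifts was not tested.

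With the background fitted on all spots, the ratio after IGF1 passed 0.5 for 0 of the 8 genes and the change after IGF1 in U87WT for 1, limma called 5 pathway genes, and OSI906 moved 3 pathway genes in U87WT and 0 in U87Mut past 0.5. An offset of 20 gave 2 pathway genes past 0.5 after IGF1 in U87Mut, and no background correction gave 1. With an offset of 0, limma called 0 of the 8 genes and 1 pathway gene, 12 pathway ratios passed 0.5 with OSI906, and so did 7 changes after IGF1 in U87Mut and 10 and 7 with OSI906 in U87WT and U87Mut.

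Processed intensities gave 0 of the 8 genes and 0 pathway genes called by limma, 1 of the 8 ratios past 0.5 in FBS-free medium, 2 of the 8 genes moved by OSI906 in U87Mut, 13 and 15 pathway ratios in FBS-free medium and with OSI906, 8 and 10 pathway changes after IGF1 in U87WT and U87Mut, and 12 and 11 with OSI906. Median in place of loess gave 0 and 0 called, ratios past 0.5 for 1, 5 and 1 of the 8 genes on the 3 arrays, 2 changes after IGF1 in U87Mut, 4 and 2 with OSI906 in U87WT and U87Mut, and for the pathway genes 20 and 25 ratios in FBS-free medium and after IGF1, 23 and 9 changes after IGF1 in U87WT and U87Mut, and 10 and 8 with OSI906. It shifted the median ratio of all named genes to -0.17 in FBS-free medium and 0.30 after IGF1. The median change after IGF1 was -0.16 in U87WT and -0.21 in U87Mut without normalization between arrays, and -0.14 and -0.15 with processed intensities.

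Scale normalization gave 1 pathway gene past 0.5 in U87Mut after IGF1 and 1 with OSI906. Without normalization between arrays, the change after IGF1 passed 0.5 for 1 of the 8 genes in U87WT and for 5 pathway genes in U87Mut, and OSI906 moved 1 pathway gene in U87Mut. The mean of all probes gave 0 of the 8 genes called, 0 ratios past 0.5 after IGF1, 1 and 0 changes after IGF1 in U87WT and U87Mut, and 1 pathway gene moved by OSI906 in U87Mut.

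At a limit of 1, 0 of the 8 genes passed it by the ratio after IGF1, by the change after IGF1 in U87WT or U87Mut, or with OSI906 in U87WT or U87Mut. For pathway genes, 1, 1 and 1 ratios passed it on the 3 arrays, 0 changes in U87WT after IGF1, and 0 and 0 with OSI906. The deposited table gave 0 of the 8 ratios past 0.5 after IGF1 and 3 pathway genes called. Leaving out each array in turn, limma called 0 to 1 of the 8 genes and 2 to 23 pathway genes, with 23 when the IGF1 array was left out, 5 without that of FBS-free medium and 2 without that of IGF1 with OSI906.

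The mean in place of the median spot intensity was not run, because the files used here hold no such column. The clones are paired by array in the limma test of the log2 ratio. Between treatments, no paired analysis was possible because no condition was repeated. The dimmest probe of GRB10 is limited by its signal over background.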
